A study of Canis lupus familiaris with 24 samples.

Results

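The genes described here code for subunits of the machinery that brings new proteins into the endoplasmic reticulum (ER): the signal peptidase subunits SPCS2, SPCS3, SEC11A and SEC11C, the signal recognition particle (SRP) subunits SRP54, SRP68 and SRP72, and the translocon subunits SEC61A1 and SSR1. They were listed by name and not by a cut on measured values, though with earlier results of these data known. Every array probe whose RefSeq transcript identifier belongs to 1 of the 9 genes was taken. This gave 13 of the 43603 probes and 8 of the 9 genes. SPCS3 matched no probe identifier and was not analysed here. SPCS2 (NM_001003324), SEC11A (NM_001003313), SEC11C (NM_001003312) and SRP68 (NM_001003271) had 1 probe each. SRP54 (NM_001003272), SRP72 (NM_001003264) and SSR1 (NM_001003270) had 2 probes each, and SEC61A1 (NM_001003315) had 3.

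Lymph node cells were taken from 4 dogs whose B lymphocytes had become malignant (B-cell lymphoma), first while the disease was drug-sensitive and again once it was drug-resistant, and the study set the phases against each other. Both phases came from the same animal, by fine-needle aspiration of peripheral lymph nodes. Dog 1 was a male Shih Tzu aged 10 years, dog 2 a male Doberman aged 9 years, dog 3 a castrated male French Bulldog aged 3 years and dog 4 a spayed female French Bulldog aged 5 years. A group is 1 dog at 1 phase. Each group was hybridised to 3 one-colour arrays, 24 for the 8 groups. Nothing states whether these were separate aspirates, so p-values within a dog measure only the spread between arrays, which may be technical. The drugs and the time between the phases are not stated in the labels.

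Many secreted and membrane proteins start with a signal peptide, which SRP recognises as it leaves the ribosome. SRP then docks the ribosome at its receptor on the ER, where the chain enters the Sec61 channel, helped by the translocon-associated protein (TRAP) complex, of which SSR1 is a subunit. Signal peptidase cuts the signal peptide off on the inner side of the membrane. B cells depend on this route for their surface immunoglobulin, and it is enlarged when they become antibody-secreting plasma cells.

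A level is the log2 of a probe's processed signal minus the log2 75th percentile of its array, so that 0 is the 75th percentile and 1 unit is 2-fold. A change is the resistant minus the sensitive mean, with its standard error (SE). Where a gene had several probes, its leading probe is the one of highest mean level. The 75th percentile signal ran from 676 to 1118 over the 24 arrays, and 71.0% to 80.9% of the probes of an array were well above background. All 13 probes were well above background on all 24 arrays and passed the filter on dim probes, which kept 34547 probes. MS4A1, the gene for the B-cell antigen CD20 and the 1 gene measured of 11 B-cell markers, was well above background on all 24 arrays too, at 10.3 to 20.3 times the 75th percentile. In bulk samples, fewer cells of a type and less RNA per cell cannot be told apart.

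The arrays of dogs 1 to 3 lay on 2 slides a dog, of which 1 held both phases of that dog, with 3 arrays of 1 phase and 1 of the other. The other slide held only 1 of its phases, so phase and slide were partly mixed, and changes are also given within the shared slide. The 3 resistant arrays of dog 4 were alone on their slide and alone on the second of 2 scan days, so in dog 4 the phase cannot be told apart from the slide or the scan day.

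SPCS2 was higher in the resistant phase in every dog, as were SRP54, SRP72 and SSR1 by their leading probes. A change above 0 in all 4 dogs held for 8.9% of all probes. Only SPCS2 was called in each dog. Its mean change over the 4 dogs was 0.40 (SE 0.14), which did not pass across dogs. The SPCS2 arrays did not overlap between the phases in any dog. Such a rise without overlap held for 29.8%, 42.8%, 31.5% and 32.1% of all probes in dogs 1 to 4. The share in all 4 dogs at once was not counted. SEC11C, a catalytic subunit of signal peptidase, was 0.74 higher in dog 2 and had changes between -0.020 and 0.063, none of which passed, in the other dogs, though median scaling called dog 1 higher and 2 other scalings called dog 3 lower. SRP68 was called lower in dog 4, by 0.21, and SEC61A1 in dog 3, by 0.32, a fall that neither of its other probes showed at the threshold. SEC61A1 was also called lower in dog 2 under 3 of 5 scalings. Both genes were higher in dog 1, SRP68 under 4 of 5 scalings and SEC61A1 under all 5. No change reached 2-fold in any dog, a size called for 11.3%, 13.6%, 6.74% and 5.34% of all probes in dogs 1 to 4.

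**Figure D1:**
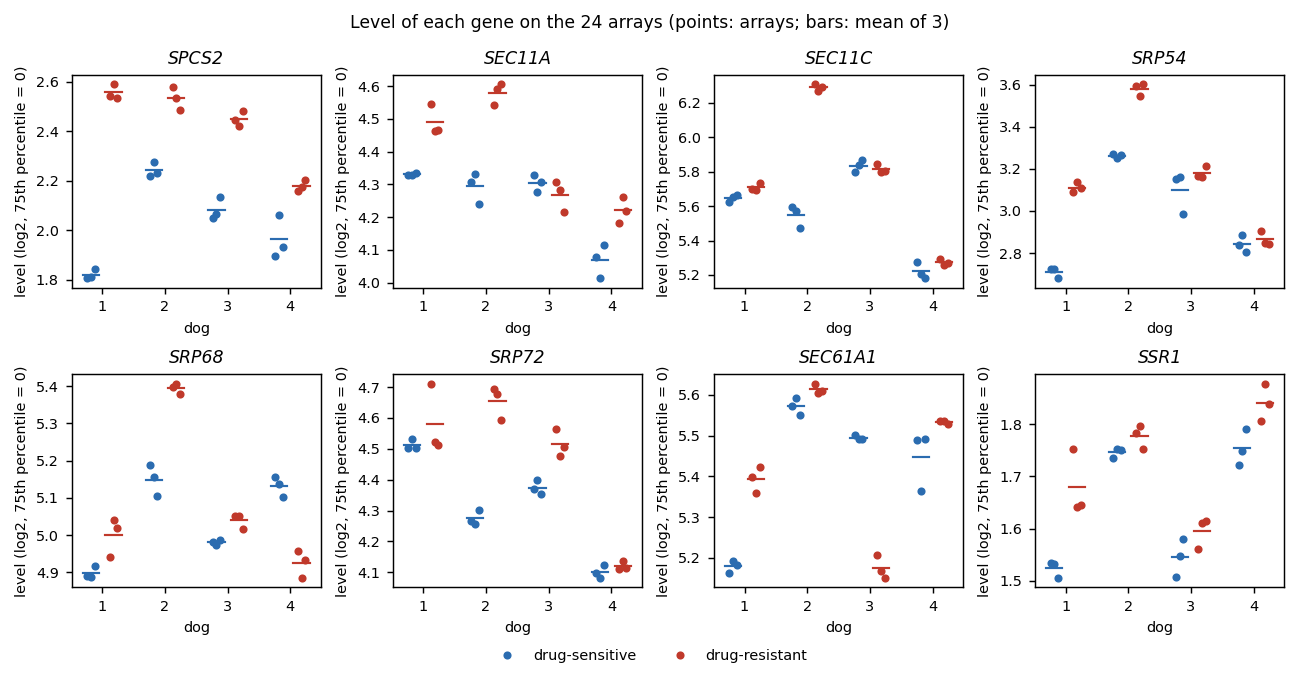
Level of the leading probe of each of the 8 genes on the 24 arrays (vertical axis: log2, 0 = the array's 75th percentile; horizontal axis: dog; points: arrays, blue for drug-sensitive and red for drug-resistant; bars: means of 3 arrays; each panel has its own vertical range). The resistant arrays of SPCS2 lie above the sensitive arrays in all 4 dogs, those of SEC11C stand far apart in dog 2 only, and those of SEC61A1 lie below the sensitive arrays in dog 3.

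SPCS2 is a non-catalytic subunit of signal peptidase. In dog 1 its level was 1.81, 1.81 and 1.84 on the sensitive arrays and 2.54, 2.59 and 2.54 on the resistant arrays. Dog 2 had 2.22, 2.28 and 2.23 and then 2.58, 2.53 and 2.49. Dog 3 had 2.05, 2.07 and 2.13 and then 2.44, 2.42 and 2.48. The resistant arrays of these 3 dogs thus lay close together, between 2.42 and 2.59, while their sensitive arrays ran from 1.81 to 2.28. Dog 4 was lower in the resistant phase than the other dogs, with 1.89, 2.06 and 1.93 before and 2.16, 2.17 and 2.20 after. The lowest resistant array stood above the highest sensitive array in each dog, which held for 29.8%, 42.8%, 31.5% and 32.1% of all probes in dogs 1 to 4. The share of probes for which it held in every dog was not counted.

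The changes of SPCS2 were 0.74, 0.29, 0.37 and 0.22 in dogs 1 to 4 (SE 0.038 each). In limma's fit to the 24 arrays the Benjamini-Hochberg adjusted p was 9.83e-12, 2.2e-06, 2.36e-07 and 0.000137 in dogs 1 to 4. Within 1 slide the changes were 0.72, 0.30 and 0.36 in dogs 1 to 3. Under each of 5 ways of scaling the arrays SPCS2 was called higher in all 4 dogs, with changes from 0.67 to 0.92 in dog 1, 0.15 to 0.44 in dog 2, 0.30 to 0.45 in dog 3 and 0.13 to 0.23 in dog 4. The sizes differed between dogs (limma's F-test of the dog-by-phase interaction, adjusted p = 3.34e-07). Across the 4 dogs limma's paired test, which blocks on the dog and takes 8 group means as its values, gave an adjusted p of 0.781. The call across dogs changed with the unit of replication. Counting the 24 arrays with the group as a random block brought limma's adjusted p to 0.00405, the lowest of 12 alternatives, of which the highest was 0.950. That fit takes arrays as its values although only 4 dogs were sampled, and its share of all probes called was not counted.

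SEC11A and SEC11C are alternative catalytic subunits of signal peptidase. SEC11C in dog 2 had levels of 5.60, 5.57 and 5.47 on the sensitive arrays and 6.31, 6.27 and 6.29 on the resistant arrays. In dog 1 it had 5.62, 5.65 and 5.67 and then 5.70, 5.70 and 5.73. The dog 1 arrays did not overlap, but the gap was small and the change of 0.063 (SE 0.031) did not pass (limma's adjusted p = 0.0984). Dog 3 had 5.80, 5.84 and 5.87 and then 5.85, 5.80 and 5.80. Dog 4 had the lowest levels of SEC11C in both phases, with 5.27, 5.21 and 5.18 before and 5.29, 5.26 and 5.27 after. The arrays of the phases overlapped in dogs 3 and 4. The scaling gave calls in these smaller changes: SEC11C passed as higher in dog 1 under median scaling (0.24; limma's adjusted p = 0.000921, against up to 0.260 over 16 alternatives). It passed as lower in dog 3 under 2 scalings (-0.13 in both; limma's adjusted p = 0.0192 and 0.0213, against up to 0.954 over 16 alternatives).

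The resistant phase of dog 2 was the highest of the 8 groups for SEC11C, 0.46 above the next, which was the sensitive phase of dog 3. Its change of 0.74 (SE 0.031) passed with limma's adjusted p of 3.23e-13. The change was 0.82 within the shared slide and ran from 0.49 to 0.89 over the 5 scalings. The changes of SEC11C differed between dogs (limma's interaction adjusted p = 5.49e-11).

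SEC11A had levels of 4.33, 4.33 and 4.34 and then 4.54, 4.46 and 4.47 in dog 1, and of 4.31, 4.33 and 4.24 and then 4.54, 4.59 and 4.61 in dog 2. Both dogs had every resistant array above every sensitive one. In dog 3 the levels were 4.33, 4.28 and 4.31 and then 4.31, 4.28 and 4.22, with the phases overlapping. Dog 4 had 4.08, 4.01 and 4.11 and then 4.18, 4.26 and 4.22, which did not overlap. Both group means of dog 4 were below those of the other dogs, though its resistant arrays overlapped those of dog 3. In limma's fit SEC11A passed in dogs 1, 2 and 4 with changes of 0.16, 0.29 and 0.15 (SE 0.035 each; adjusted p = 0.000724, 9.38e-07 and 0.00155) and had a change of -0.035 in dog 3, which passed as lower under 1 scaling (-0.093). These calls held under 2, 2 and 4 of the 5 scalings, and in dog 1 the sign turned under 2 of them, to -0.066 at the lowest.

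The change of SEC11C minus that of SEC11A was -0.097, 0.46, 0.016 and -0.098 in dogs 1 to 4. The mean difference was 0.070 (SD 0.26, n = 4 dogs; exact two-sided sign-flip permutation test, p = 0.875, where 0.125 is the smallest p that 4 dogs allow). It rested on dog 2, since without that dog it was -0.060.

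**Figure D2:**
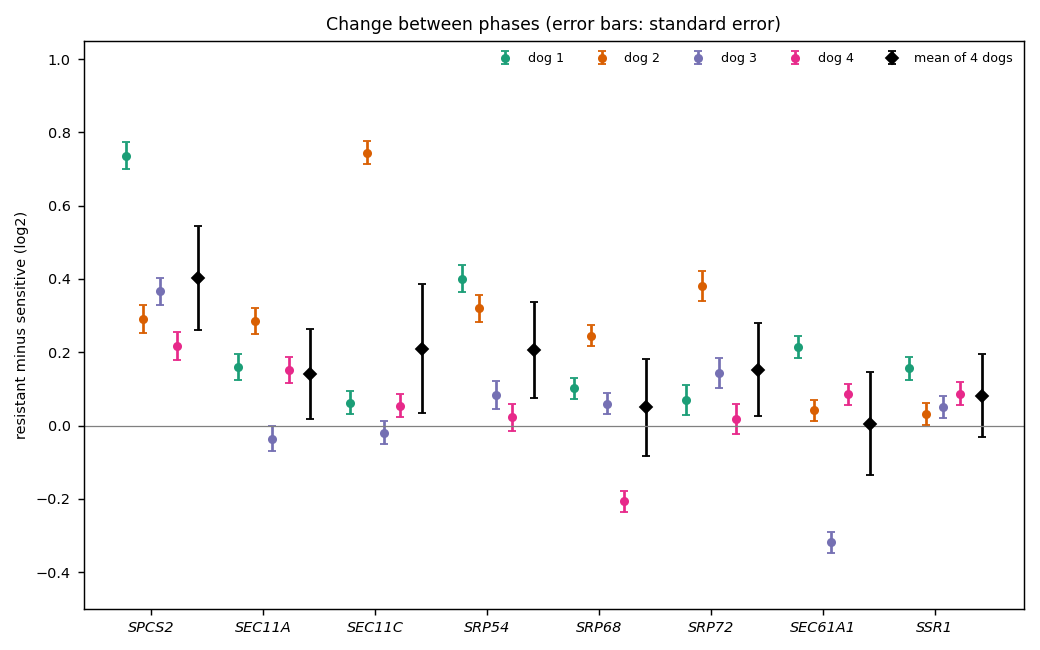
Change of the leading probe of each gene (vertical axis: resistant minus sensitive, log2; coloured circles: dogs 1 to 4; black diamonds: mean of the 4 dogs; bars: standard errors from limma). SPCS2 lies above 0 in all 4 dogs with a mean of 0.40, whereas SRP68 has dog 4 at -0.21 and SEC61A1 has dog 3 at -0.32.

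SRP54 is the SRP subunit that binds the signal peptide and GTP. Its leading probe had levels of 2.72, 2.73 and 2.68 and then 3.09, 3.14 and 3.11 in dog 1. Dog 2 had 3.27, 3.25 and 3.26 and then 3.60, 3.55 and 3.60. The phases stood clear of each other in these dogs. Dog 3 had 3.15, 3.16 and 2.98 and then 3.17, 3.16 and 3.21, and dog 4 had 2.84, 2.89 and 2.81 and then 2.90, 2.85 and 2.84. Sensitive array 3 of dog 3 lay below the other arrays of that dog, and in dog 4 the phases overlapped.

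The changes of SRP54 were 0.40 and 0.32 in dogs 1 and 2 (SE 0.038 each; limma's adjusted p = 4.68e-08 and 6.3e-07) and 0.084 and 0.022 in dogs 3 and 4. The rise in dog 1 was called under all 5 scalings and was 0.38 within 1 slide, and that in dog 2 was called under 3 scalings and was 0.32 within 1 slide. In dog 3 the change passed when sensitive array 1 or 2 was left out (0.11 in both cases; limma's adjusted p = 0.0376 and 0.0285) and under median scaling (0.17; adjusted p = 0.0105, against up to 0.593 over 16 alternatives).

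The other SRP54 probe gave 0.37, 0.33 and 0.091 in dogs 1 to 3, close to the leading probe. In dog 4 the probes disagreed: the other probe had 2.60, 2.77 and 2.56 and then 3.09, 3.01 and 3.11, without overlap. Its change there was 0.43 (SE 0.051; limma's adjusted p = 2.18e-06), against 0.022 for the leading probe. Whether SRP54 was called in dog 4 thus depended on the probe.

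SRP68 and SRP72 form a dimer on the SRP RNA. SRP68 had levels of 4.89, 4.89 and 4.92 and then 4.94, 5.04 and 5.02 in dog 1, and of 5.19, 5.16 and 5.10 and then 5.40, 5.41 and 5.38 in dog 2. In dog 3 it had 4.98, 4.97 and 4.99 and then 5.05, 5.05 and 5.02. The resistant arrays lay above the sensitive ones in these 3 dogs. Dog 4 went the other way without overlap, from 5.16, 5.14 and 5.10 to 4.96, 4.88 and 4.93.

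The changes of SRP68 were 0.10, 0.25, 0.060 and -0.21 (SE 0.028 each), and those of dogs 1, 2 and 4 passed (limma's adjusted p = 0.00547, 5.04e-07 and 1.1e-05). The fall in dog 4 was called under all 5 scalings, with changes from -0.28 to -0.21. The call in dog 2 held under 2 scalings, where its lowest change was 0.022, and that in dog 1 under 3. Within the shared slide dog 1 had a change of 0.042, which did not pass (adjusted p = 0.247; range over 16 alternatives 0.000317 to 0.247). The change in dog 3 passed under median scaling (0.15). The interaction passed (limma's adjusted p = 1.12e-07), though in dog 4 phase, slide and scan day cannot be told apart.

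SRP72 rose in dog 2, from 4.27, 4.25 and 4.30 to 4.69, 4.68 and 4.59. In dog 3 it went from 4.37, 4.40 and 4.35 to 4.56, 4.48 and 4.51. No array of 1 phase reached the other phase in these dogs. Dog 1 had 4.50, 4.53 and 4.50 and then 4.71, 4.52 and 4.51, where resistant array 1 alone stood apart, and dog 4 had the lowest levels, 4.10, 4.08 and 4.12 and then 4.11, 4.14 and 4.11. The changes were 0.38 in dog 2 and 0.14 in dog 3 (SE 0.041 each; limma's adjusted p = 2.24e-07 and 0.00818), with 0.35 and 0.19 within 1 slide. The dog 2 call held under all 5 scalings and the dog 3 call under 2. In dogs 1 and 4 the changes were 0.070 and 0.018. Median scaling called dog 1 higher (0.25), and the change of dog 4 passed under 2 scalings (0.17 in both; limma's adjusted p = 0.0288 and 0.0313, against up to 0.995 over 15 alternatives). Within its shared slide dog 1 gave 0.20 and passed (limma's adjusted p = 0.00105; range over 16 alternatives 8.38e-05 to 0.890). That slide held resistant array 1 as its only resistant array of dog 1. The other SRP72 probe had changes of 0.19, 0.34, 0.28 and -0.019 in dogs 1 to 4, and the first 3 passed (limma's adjusted p = 0.00172, 3.3e-06 and 5.51e-05).

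SEC61A1 codes for the channel-forming subunit of the translocon. Its leading probe was nearly the same on the 3 arrays of most groups, with a median SD of 0.018. In dog 3 it went from 5.50, 5.49 and 5.49 to 5.21, 5.17 and 5.15. Dog 1 moved the other way, from 5.16, 5.19 and 5.18 to 5.40, 5.36 and 5.42. In both dogs the phases were further apart than the arrays of either phase. Dog 2 had the highest levels, 5.57, 5.59 and 5.55 and then 5.63, 5.60 and 5.61. Dog 4 had 5.49, 5.37 and 5.49 and then 5.54, 5.54 and 5.53. Resistant arrays lay above sensitive ones without overlap in dogs 1, 2 and 4, by a small gap in dogs 2 and 4.

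The changes of SEC61A1 were 0.21, 0.041, -0.32 and 0.085 (SE 0.029 each). Those of dogs 1, 3 and 4 passed (limma's adjusted p = 5.12e-06, 4.53e-08 and 0.0224), and they averaged 0.0055 across dogs. The fall in dog 3 was called under all 5 scalings, from -0.40 to -0.23, and was -0.29 within 1 slide. The rise in dog 1 was called under 3 scalings. In dog 2 the sign turned under 3 scalings, which called it lower, with the lowest at -0.21, and median scaling called it higher, at 0.19. The call in dog 4 held under 1 scaling and ended without sensitive array 2 (0.043, adjusted p = 0.153), resistant array 1 (adjusted p = 0.0505) or resistant array 2 (adjusted p = 0.0539), all with limma. With the replicate number as a block it ended too (adjusted p = 0.0609), and its 15 alternatives spanned adjusted p-values of 0.00154 to 0.721.

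The other 2 SEC61A1 probes did not pass in dog 3. The probe printed as 5 spots had 1.89, 1.88 and 1.94 and then 1.86, 1.82 and 1.87 there, a change of -0.056 (SE 0.030; limma's adjusted p = 0.143), though without overlap between the phases. The dimmest probe had -2.74, -2.80 and -2.85 and then -2.67, -2.77 and -2.80, a change of 0.051 (SE 0.11). In dogs 1 and 4 the 5-spot probe rose by 0.29 and 0.25 (SE 0.030 each; limma's adjusted p = 1.97e-07 and 3.13e-06), as the leading probe did with 0.21 and 0.085. The rise in dogs 1 and 4 was thus seen with both brighter probes, and the fall in dog 3 passed with the leading probe only.

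**Figure D3:**
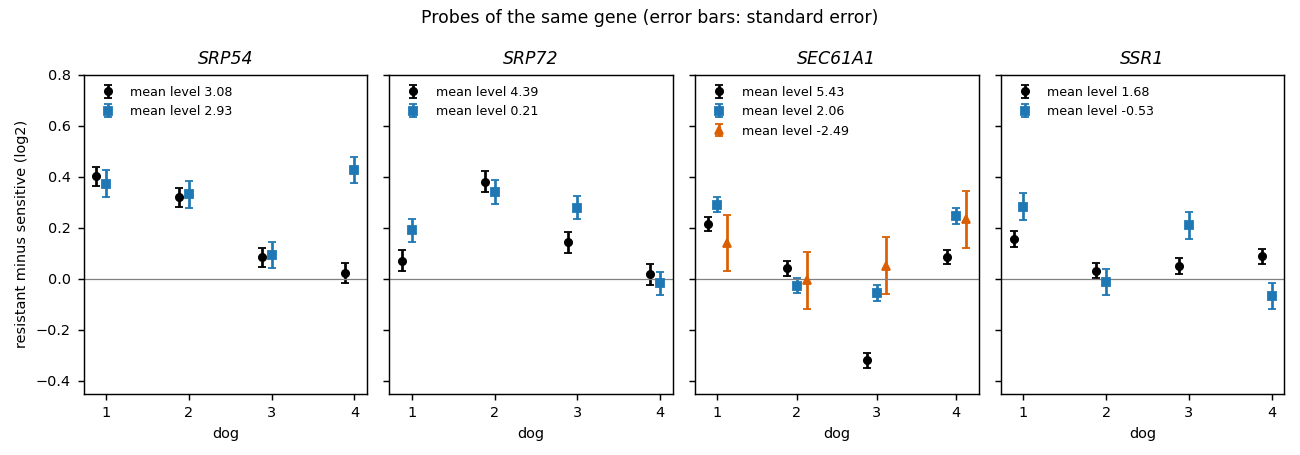
Change of each probe of the 4 genes with several probes (vertical axis: resistant minus sensitive, log2; horizontal axis: dog; bars: standard errors; the legend gives each probe's mean level). The 2 SRP54 probes part in dog 4, at 0.022 and 0.43, and the leading SEC61A1 probe stands below the other 2 in dog 3.

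SSR1, a subunit of the TRAP complex beside the channel, had the narrowest range of the 8 genes, 0.32 between its highest and lowest group means. In dog 1 its leading probe had 1.53, 1.53 and 1.51 and then 1.75, 1.64 and 1.65. Dog 4 had 1.72, 1.75 and 1.79 and then 1.81, 1.88 and 1.84. Neither dog's phases overlapped. In dog 2 it had 1.74, 1.75 and 1.75 and then 1.78, 1.80 and 1.75, and in dog 3 it had 1.51, 1.55 and 1.58 and then 1.56, 1.61 and 1.61.

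The changes of SSR1 were 0.16, 0.032, 0.051 and 0.087 (SE 0.031 each), and those of dogs 1 and 4 passed (limma's adjusted p = 0.000308 and 0.0272). They held under 3 and 4 of the 5 scalings. Dog 2 passed as higher under median scaling (0.18) and as lower under quantile normalisation (-0.091), and dog 3 as higher under median scaling (0.14). The dog 4 call also ended in 4 of the 6 fits that left out 1 array, namely without sensitive arrays 1 or 2 or resistant arrays 2 or 3, and the highest adjusted p among the 6 was 0.118. It ended too with the slide as a random block (limma's adjusted p = 0.0882) and with the mean of the gene's probes (0.0097, limma's adjusted p = 0.859). Over its 15 alternatives limma's adjusted p ran from 0.00123 to 0.859. SSR1 was the 1 gene of the 8 whose interaction did not pass (limma's adjusted p = 0.0627). Its other probe had changes of 0.28, -0.013, 0.21 and -0.068 in dogs 1 to 4, of which dogs 1 and 3 passed (limma's adjusted p = 0.000161 and 0.00273).

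Set together, 0 of the 8 genes passed across the 4 dogs, where 0% of the 34547 probes did in limma's test on the group means. At an unadjusted p under 0.05 there was 1 of the 8, SPCS2, and 6.14% of all probes. All 8 mean changes were above 0, from 0.0055 for SEC61A1 to 0.40 for SPCS2, with a median of 0.15 against 0.054 for all probes. Those of SRP68 and SEC61A1 turned below 0 under 3 of the 5 scalings. Under quantile normalisation the median of the 8 was 0.044, below the 0.061 of all probes. It stayed above that of all probes under the other scalings. SPCS2, SRP54, SRP72 and SSR1 were higher in all 4 dogs, 4 of 8 genes, which held for 8.9% of all probes, and 0 were lower in all 4 dogs, against 7.36%. Of the 4, only SPCS2 kept its sign in all 4 dogs under all 5 scalings. These counts take the leading probes. The other SRP72 probe had -0.019 in dog 4, and the other SSR1 probe had -0.013 and -0.068 in dogs 2 and 4.

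In dog 1, 6 of the 8 genes were called higher and 0 lower, where limma called 56.8% of all probes, 27.4% higher and 29.3% lower. In dog 2 these were 6 higher and 0 lower against 61.7%, of them 38% higher and 23.7% lower. Dog 3 had 2 higher and 1 lower against 47.7%, of them 26.2% higher and 21.5% lower. Dog 4 had 4 higher and 1 lower against 48.1%, of them 26.5% higher and 21.6% lower. With calls this common over the whole array, the totals of 6, 6, 3 and 5 of 8 in dogs 1 to 4 say little about these genes. No test set them against the background. The leading probes were also brighter than most, at percentiles 81.7 to 98.1 of mean level, whereas the background takes in probes of all levels. The median changes in dogs 1 to 4 were 0.16, 0.29, 0.055 and 0.069, against -0.050, 0.10, 0.031 and 0.052 for all probes. Under quantile normalisation they were 0.049, 0.103, 0.022 and 0.051, against 0.018, 0.109, 0.049 and 0.0031 for all probes. Arrays of the phases did not overlap for 7, 8, 5 and 5 of the genes, against 63.3%, 70.4%, 58% and 57.1% of all probes. These were higher in the resistant phase for 7, 8, 4 and 4 genes and lower for 0, 0, 1 and 1, where all probes had 29.8%, 42.8%, 31.5% and 32.1% higher and 33.6%, 27.6%, 26.5% and 25% lower.

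The scaling of the arrays set part of these counts. Scaling to the median in place of the 75th percentile moved the median change of all probes to 0.13, 0.25, 0.12 and -0.0083 in dogs 1 to 4. Of the calls over all probes, 48.3%, 61.6%, 54.9% and 55.1% were higher in dogs 1 to 4, and with median scaling 71%, 73.1%, 69.1% and 44.3%. Of the 32 changes of 1 gene in 1 dog, 20 were called, and 9 were called in 1 direction under all 5 scalings. The 7 higher ones were SPCS2 in 4 dogs, SEC11C and SRP72 in dog 2 and SRP54 in dog 1. The 2 lower ones were SRP68 in dog 4 and SEC61A1 in dog 3. The sign was the same under all 5 scalings for 20 of the 32. The matching shares of all probes were not counted. Several of the 5 scalings share quantile normalisation, so they are not separate checks.

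**Figure D4:**
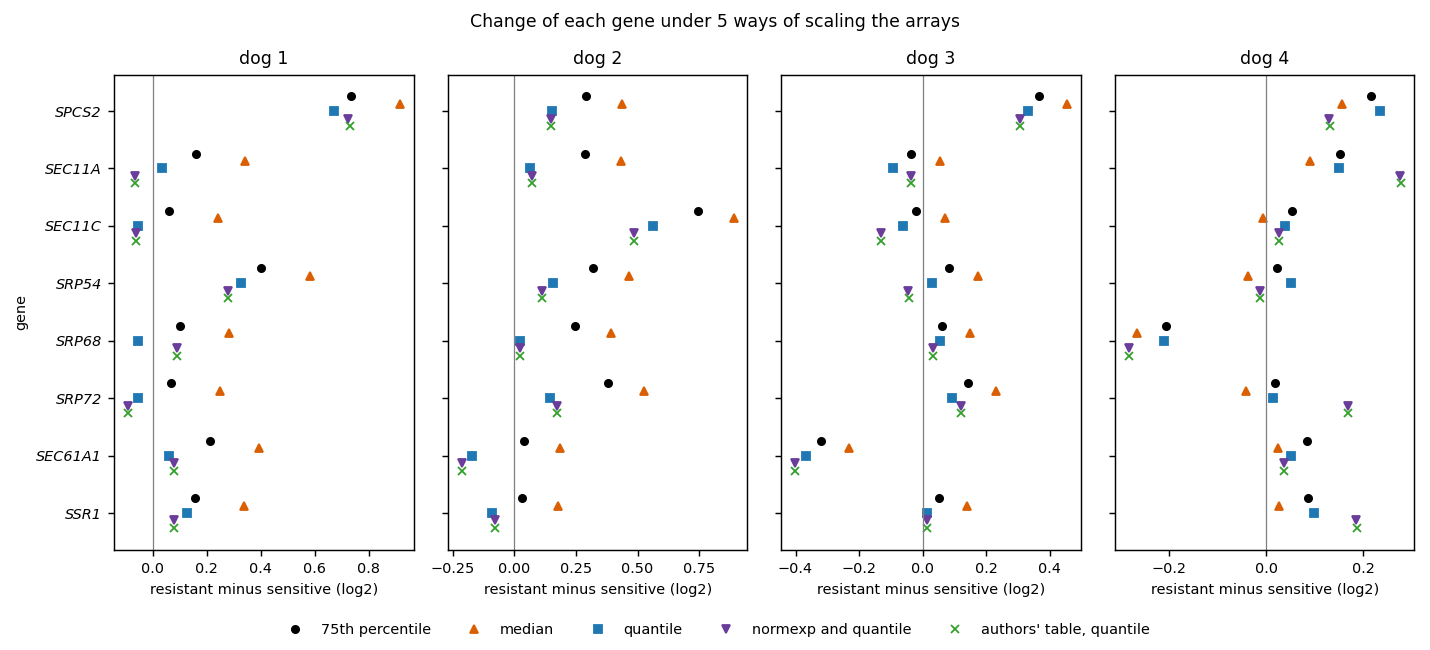
Change of each gene in each dog under 5 ways of scaling the arrays (horizontal axis: resistant minus sensitive, log2, with its own range in each panel; vertical axis: gene; symbols: scalings, named in the legend). SPCS2 lies right of 0 in all 4 panels under all scalings, and median scaling gives the highest value for each gene in dogs 1 to 3.

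Changes differed between dogs for 7 of the 8 genes by limma's interaction test, which passed for 80.5% of all probes. Levels between dogs did not pass for any of the 8 in the fit to the group means (limma's adjusted p from 0.222 for SRP54 to 0.614 for SPCS2, 5.97% of all probes called). At an unadjusted p under 0.05 these were also 0 of 8, against 29.7% of all probes. The resistant phase of dog 2 was the highest of the 8 groups for SEC11A, SEC11C, SRP54, SRP68, SRP72 and SEC61A1. Its arrays overlapped the next group for SEC11A and SRP72. SPCS2 was highest in the resistant phase of dog 1, which overlapped that of dog 2, and SSR1 in that of dog 4. The lowest group was the sensitive phase of dog 1 for SPCS2, SRP54, SRP68 and SSR1, and the sensitive phase of dog 4 for SEC11A, SEC11C and SRP72.

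Over the 8 group means, 24 of the 28 pairs of genes had a Pearson r above 0, with a median of 0.50, as a description over groups that share arrays and scaling. The closest pairs were SEC11C with SRP72 (r = 0.87), SEC11A with SRP72 (0.86) and SEC11A with SEC11C (0.83). SRP72 and SSR1 had the lowest r, at -0.43. Among 710 other genes with a symbol, the 2 whose group means were most like each gene's were PPT1 and MYH9 for SPCS2 (r = 0.91 and 0.90), ANP32A and SRP14 for SEC11A (0.94 and 0.91) and FUNDC2 and SMAP1 for SEC11C (0.91 and 0.90). They were TUBG1 and TUBD1 for SRP54 (r = 0.95 and 0.92), RAB27A and VASP for SRP68 (0.95 and 0.94) and GNB3 and SRP14 for SRP72 (0.95 and 0.90). For SEC61A1 they were CRYAA and PROC (r = 0.91 and 0.84), and for SSR1 they were FLT3LG and PHB (0.94 and 0.87). SRP14, itself an SRP subunit, was among the nearest for both SEC11A and SRP72.

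Of the neighbouring steps of the pathway, 8 other genes were measured. They were SRP14, the translocon subunits SEC61B and SEC61G, TRAM1, which lies beside the channel, the TRAP subunit SSR2, the oligosaccharyltransferase subunit DDOST, and the ER chaperones HSP90B1 and CANX. Across dogs 0 of the 8 passed in limma's test. In dogs 1 to 4, 7, 5, 2 and 5 of them were called higher and 0, 1, 3 and 0 lower, where 27.4%, 38%, 26.2% and 26.5% of all probes were higher and 29.3%, 23.7%, 21.5% and 21.6% lower. Calls that held under all 5 scalings were 6, 0, 2 and 2, all higher, and the matching shares of all probes were not counted. All these counts take the leading probes.

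Dog 1 had the most even pattern. HSP90B1, the ER form of the HSP90 chaperone, was 0.85 higher there (limma's adjusted p = 1.09e-14), and its other probe was 0.92 higher. TRAM1 was 0.41 higher, SEC61G 0.36, DDOST 0.32, CANX 0.31 and SEC61B 0.24, all called under the 5 scalings, while SSR2 had -0.020. In dog 4 SEC61G rose by 0.68 (limma's adjusted p = 2.32e-13), and the HSP90B1 probes disagreed, at 0.21 and -0.33. In dog 3 DDOST rose by 0.28 and SRP14 by 0.20 under all 5 scalings, with SEC61B at -0.15 and HSP90B1 at -0.091. Probes of a gene differed there. The other TRAM1 probe passed as lower at -0.27 (limma's adjusted p = 3.69e-06), against 0.091 for the leading probe. The other CANX probe passed as lower at -0.12 (limma's adjusted p = 0.00329), against -0.0018. The other HSP90B1 probe had -0.0043, while the other SRP14 probe passed as higher at 0.18. In dog 2 SRP14 was highest at 0.35 and SEC61G lowest at -0.15, and neither was called under all 5 scalings. DDOST and SRP14 were higher in all 4 dogs, although under 3 of the 5 scalings DDOST in dog 2 and SRP14 in dog 4 were lower. The other SRP14 probe had -0.024 in dog 4.

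**Figure D5:**
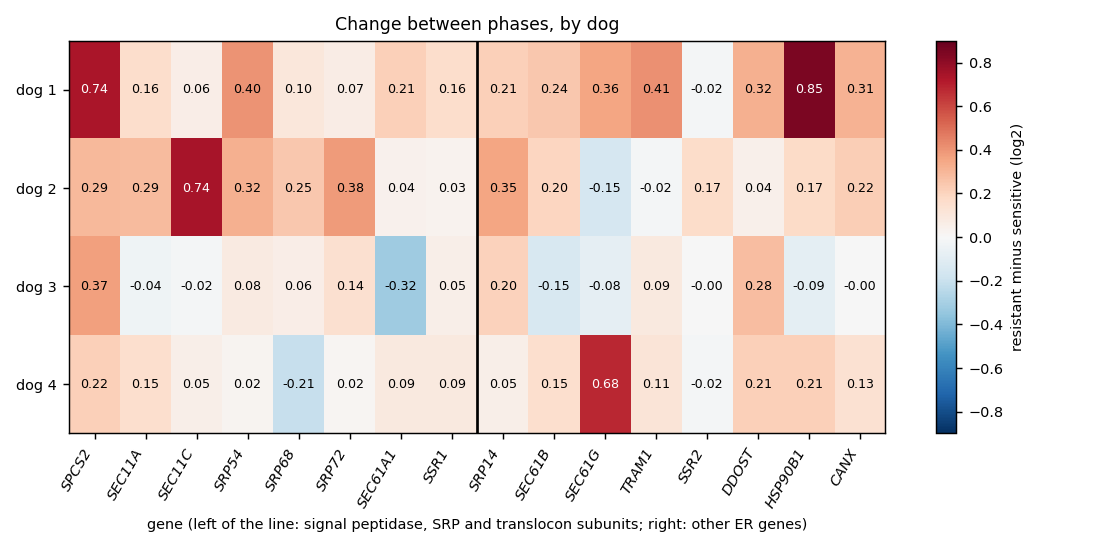
Changes of the leading probes of the 8 genes (left of the line) and of 8 other genes of ER entry and early folding (right), in rows by dog (colour and number: resistant minus sensitive, log2). HSP90B1 and SPCS2 in dog 1, SEC11C in dog 2 and SEC61G in dog 4 carry the deepest red, at 0.85, 0.74, 0.74 and 0.68.

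Of the ER-to-Golgi transport list, 1 of 23 genes was measured, the cargo receptor LMAN2, with changes of 0.29, -0.024, -0.11 and -0.38 in dogs 1 to 4. Its probes disagreed in dog 3, where the others had -0.066, which did not pass, and 0.16, which passed as higher (limma's adjusted p = 0.000426). In dogs 1 and 4 all its probes went the same way. Of the ribosome and nascent chain list, 1 of 18 was measured, RPS18, with -0.36, 0.31, -0.045 and 0.42. No gene was measured of the ER membrane complex, unfolded protein response and ER-associated degradation lists. The 1 gene measured of 10 proliferation genes, BIRC5, had -0.18, 0.59, -0.46 and 0.041.

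Markers of other cell types moved between the phases as well, and their part in the changes above was not tested. In dog 2, where SEC11C and SRP72 rose, all 5 measured of 10 T-cell markers fell, and their summed signal went from 4.41–4.65 times the 75th percentile on the sensitive arrays to 0.27–0.28 on the resistant arrays, with CD28 and ICOS not well above background there. Both measured of 6 NK and cytotoxic cell markers fell in dog 2 as well, their sum going from 36.1–37.0 to 0.46–0.51. CD38, the 1 gene measured of 10 plasma cell markers, fell in all 4 dogs by limma's test, with changes of -0.94, -4.22, -0.90 and -0.31, but its other probe had 0.29 in dog 4. In dog 1, where SPCS2 and SRP54 rose, 3 measured of 6 neutrophil markers fell, their sum going from 2.15–2.34 to 0.21–0.27. In dog 2, where most of the 8 genes were higher, the neutrophil sum went from 0.070–0.12 to 1.07–1.11, and 2 of the 3 markers rose, CAMP by 4.49 and MMP9 by 2.52. The NK sum in dog 1 went from 1.23–1.40 to 0.19–0.21, and the T-cell sum from 0.39–0.46 to 0.25–0.27, with CTLA4 and ICOS not well above background in the resistant phase.

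In dog 3 the neutrophil sum went from 3.09–3.18 to 0.075–0.14, and the sum of 8 measured of 9 stroma markers from 15.04–15.73 to 4.86–5.10. The stroma sum was lower in the other dogs as well, from 2.41–2.42 to 1.18–1.22 in dog 1 (where 4 members fell, while the 2 called higher were CCL19 and CCL21), from 8.46–8.91 to 2.69–2.97 in dog 2 (DCN not well above background) and from 4.43–5.07 to 3.12–3.24 in dog 4. The sum takes the leading probe of each gene, and other probes disagreed. In dog 4 the COL1A2 probes at -0.55 and -0.56 passed as lower, those at 0.33 and 0.45 passed as higher, and those at -0.097 and -0.076 did not pass. For COL1A1 the leading probe had -0.65 and -0.76 in dogs 1 and 4, while another passed as higher at 0.83 and 0.81. A further COL1A1 probe passed as lower in dog 1, at -1.48. Among T-cell markers 3 rose in dog 4, with the sum of the 5 going from 0.35–0.42 to 0.50–0.54. CD8A went the other way there, with -0.36, which did not pass. Its other probe had -1.03 and passed as lower (limma's adjusted p = 0.0063). CD163, the 1 gene measured of 8 macrophage markers, had changes of 0.53, -0.74, -1.33 and 0.33 in dogs 1 to 4. The B-cell marker MS4A1 had changes of -0.29, 0.16, 0.21 and -0.28, all called by limma, with the sign in dog 2 turned under 3 of the 5 scalings. In dogs 1 and 4 MS4A1 was lower under all 5 scalings, and in dog 3 it was higher under all 5. Its relation to SPCS2 was not tested.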

How the data were processed

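Lymph node aspirates of 4 dogs in 2 phases were measured on 24 one-colour Agilent arrays. Groups and replicate numbers came from the sample titles. The scanner files hold spot intensity, deposited by the authors as written by the scanner software, Agilent Feature Extraction version 10.7.3.1 per the submitters' processing notes. The processed signal intensity is already background-subtracted, per the file headers, with no normalisation between arrays. The authors' deposited value table matched each spot's raw median intensity (largest difference 0), so it is linear and uncentred, with column medians of 97 to 141. The sources used here name no genome build.

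Values used were log2 levels, computed from the deposited intensity: each processed signal over the 75th percentile of its array. Of 45220 spots, 1417 control spots were dropped, as were 6 to 195 outlier spots an array; 0 were saturated. Repeated spots were averaged. Probes stayed in if well above background on all 3 arrays of a group. There were 34550 such probes, of which 34547 had a value in every group. RefSeq's gene table named 832 of 35908 identifiers. The number of dogs limits the precision across dogs, and the number of arrays limits it within a dog.

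Across dogs, limma 3.58.1 (R 4.3.3) took the 8 group means and blocked on the dog. Within dogs it took all 24 arrays in 8 groups, which share 1 spread a probe. Calls used a Benjamini-Hochberg adjusted p under 0.05 over all 34547 probes, two-sided. Scripts were tested on simulated data. The 5 scalings were the 75th percentile, the median, quantile normalisation, normexp (offset 50, on median signals, in place of means) with quantile normalisation, and the value table after log2 and quantile normalisation. Other alternatives were the dim-probe filter, the mean of a gene's probes, slide and replicate blocks, and leaving out arrays or dogs. Summed marker signals are linear multiples of the 75th percentile. All members were described with every probe. Of each further list up to 4 genes were named by size of the mean change across dogs, and for each member the 2 genes with a symbol of highest r. A few further list genes were named after their values were seen. The members, lists and tests were chosen with earlier results of these data known.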

Additional observations from a re-analysis of the deposited data

Results flagged for a closer look

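The change of SEC11C in dog 2, 0.74, lay far from the other 3 dogs (-0.020 to 0.063): its gap to the next dog was 0.892 of the whole range of the 4 changes. The sensitive-phase level of SEC11A in dog 4, 4.07, lay below that of the other dogs (4.29 to 4.33), with a gap of 0.857 of the range. Both exceed Dixon's limit for 4 values. Of 24 sets of 4 dogs tested, 2 did so, and chance gives about 1 in 20.

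The change between phases differed between dogs for 7 genes by limma's F-test of the dog-by-phase interaction, which 80.5% of all probes passed. The adjusted p was 3.34e-07 for SPCS2, 0.000121 for SEC11A, 5.49e-11 for SEC11C, 7e-06 for SRP54, 1.12e-07 for SRP68, 0.000103 for SRP72 and 1.08e-08 for SEC61A1. For SPCS2 and SRP54 the 4 dogs had 1 direction and differed in size, from 0.22 to 0.74 and from 0.022 to 0.40. For SRP68 and SEC61A1 dogs were called in opposite directions. The lower call of SRP68 was that of dog 4, where the phase cannot be told apart from the slide or the scan day. The spread behind these p-values is that between arrays alone.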

How the results depend on the processing

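Counts of called genes that moved by over 1.5 times were as follows. Under median scaling dog 3 had 6 in place of 3 and dog 4 had 2 in place of 5. Dog 1 had 3 in place of 6 under normexp with quantile normalisation and 2 with the authors' value table. Dog 4 had 3 with the slide as a random block and 3 to 5 when 1 array was left out (3 without sensitive array 2 or resistant array 2). Leaving out 1 array gave 6 in dogs 1 and 2 and 3 to 4 in dog 3, and leaving out a dog gave 0 across dogs. Across dogs the group as a random block gave 1, SPCS2, in a fit that takes arrays and not dogs as its values. The share of all probes that this fit called was not counted. The interaction count was 8 under the 3 alternatives run, against 7. SEC11C minus SEC11A ran from -0.0599 (without dog 2) to 0.126 when 1 dog was left out. Filters on dim probes changed no count by over 1.5 times.

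Several signs turned. Under median scaling SEC11A and SEC11C in dog 3 became 0.0532 and 0.0688, and SEC11C, SRP54 and SRP72 in dog 4 became -0.00665, -0.0382 and -0.0423. Under quantile normalisation SRP68 and SEC61A1 became -0.0473 and -0.106 across dogs, SEC11C, SRP68 and SRP72 in dog 1 became -0.0545, -0.0525 and -0.0539, and SEC61A1 and SSR1 in dog 2 became -0.171 and -0.0912. Under normexp, with the value table's figure second, the values were -0.0346 and -0.0346 for SRP68 and -0.125 and -0.125 for SEC61A1 across dogs. In dog 1 they were -0.0655 and -0.0657 for SEC11A, -0.0615 and -0.0616 for SEC11C and -0.0907 and -0.0902 for SRP72. In dog 2 they were -0.213 and -0.214 for SEC61A1 and -0.0781 and -0.0785 for SSR1. For SRP54 they were -0.0449 and -0.0445 in dog 3 and -0.0137 and -0.0135 in dog 4. With the mean of all probes SRP72 in dog 4 was -0.000255. With the slide as a block SEC11A and SEC11C in dog 3 were 0.00295 and 0.0104. Leaving out 1 dog in turn, SEC61A1 across dogs ran from -0.0643 to 0.114 and SRP68 from -0.0150 to 0.136. The cause was not tested.

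Replicate numbers did not pair the arrays: deviations of same-numbered arrays correlated between -0.119 and 0.087 in 12 pairs, none over 0.1. With the replicate block the counts were 6, 6, 3 and 4 in dogs 1 to 4, and no call other than that of SEC61A1 in dog 4 changed.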
